A study of Arabidopsis thaliana with 30 samples.

Results

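The genes described here are the 7 biosynthetic genes of 2 triterpene gene clusters on Arabidopsis chromosome 5, the thalianol cluster (THAS1, THAH, CYP705A5 and THAA1) and the marneral cluster (MRN1, CYP71A16 and CYP705A12). They are 7 of the 32833 genes in the count table, were taken by locus identifier, and were chosen on their read counts across these sorts as earlier results had shown them, so their levels across cell types are given as a description with no test. The table held reads per gene for 30 RNA-seq libraries from wild-type Arabidopsis thaliana root cells, in 10 groups of 3. Seedlings of GFP marker lines were grown for 6 days at 22 °C in diluted MS medium with low phosphate (LPi) or high phosphate (HPi), and the fluorescent cells were sorted. The treatment protocol describes LPi as a low phosphate concentration, whereas the label of each LPi library says that phosphate was left out, so the LPi level is uncertain. The sorts were the epidermis (WER::GFP), the lateral root cap (J3411), the cortex (J0571), the stele (SHR::GFP) and the pericycle (J0661), each at LPi and HPi with 3 replicates. Each sort rests on 1 marker line, so the cell type and the line cannot be told apart. Whether the replicates of a group were grown and sorted separately is not in the labels, so a p-value here covers the spread among libraries, which may be technical.

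Triterpenes are made from oxidosqualene, which an oxidosqualene cyclase folds into a ring scaffold that cytochromes P450, acyltransferases and other enzymes then modify. In most plant pathways the genes for such steps are scattered, but in Arabidopsis those for thalianol and for marneral products sit next to each other and are known for their expression in roots. Products of the thalianol pathway shape the bacterial community of the root, and loss of the marneral synthase alters growth and development.

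The thalianol cluster spanned 32.819 kb and the marneral cluster 34.744 kb on chromosome 5 of the TAIR10.1 RefSeq annotation, a build used here for positions because that of the files was not given in the sources used here. THAS1 (AT5G48010), the thalianol synthase, is an oxidosqualene cyclase with 14 exons at chr5:19456837-19461706 on the plus strand. THAH (AT5G48000, also CYP708A2), the thalianol hydroxylase, lies at chr5:19444103-19447866 on the minus strand. CYP705A5 (AT5G47990), a P450 that desaturates the hydroxylated product, lies at chr5:19434758-19436749 on the plus strand. THAA1 (AT5G47980), an acyltransferase of the pathway, lies at chr5:19428888-19430517 on the plus strand in a single exon. MRN1 (AT5G42600), the marneral synthase, is the cyclase of the second cluster, again with 14 exons, at chr5:17053453-17058245 on the plus strand. CYP71A16 (AT5G42590), a P450 that oxidises the marneral product, lies at chr5:17031024-17033800 on the minus strand, and CYP705A12 (AT5G42580), a P450 of the same family as CYP705A5, at chr5:17023502-17025361 on the minus strand. No annotated gene overlapped any of the 7. None of the 50-base stretches of their exons occurred elsewhere in the genome except in THAH, where 57 of 1774 did (3.21%).

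The 250 bases before the annotated start of the 2 cyclase genes and of 1 minus-strand P450 gene in each cluster (THAH and CYP71A16) are shown. They were picked because within each pair the neighbours differed in where they were expressed, THAS1 and THAH in the lateral root cap and MRN1 and CYP71A16 in the cortex sort. Sequences are from RefSeq TAIR10.1 and run 5′ to 3′ towards the gene, and capitals mark, on either strand, the letters TATAAA of the core promoter box or those of the W-box, TTGACC.
THAS1, chr5:19456587-19456836, plus strand: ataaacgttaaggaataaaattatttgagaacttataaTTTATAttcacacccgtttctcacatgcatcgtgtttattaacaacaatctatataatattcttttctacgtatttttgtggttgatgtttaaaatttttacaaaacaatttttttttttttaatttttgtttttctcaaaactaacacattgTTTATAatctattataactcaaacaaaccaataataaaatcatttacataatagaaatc
THAH, chr5:19447867-19448116, minus strand: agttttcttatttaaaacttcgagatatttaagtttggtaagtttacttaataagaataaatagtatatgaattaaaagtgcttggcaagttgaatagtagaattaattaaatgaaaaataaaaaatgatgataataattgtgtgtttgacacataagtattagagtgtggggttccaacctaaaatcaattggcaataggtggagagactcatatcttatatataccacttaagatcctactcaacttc
MRN1, chr5:17053203-17053452, plus strand: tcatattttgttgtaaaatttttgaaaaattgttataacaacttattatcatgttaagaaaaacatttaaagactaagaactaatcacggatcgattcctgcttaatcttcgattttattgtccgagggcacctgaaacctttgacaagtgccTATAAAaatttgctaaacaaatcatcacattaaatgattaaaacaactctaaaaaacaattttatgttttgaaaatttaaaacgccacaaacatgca
CYP71A16, chr5:17033801-17034050, minus strand: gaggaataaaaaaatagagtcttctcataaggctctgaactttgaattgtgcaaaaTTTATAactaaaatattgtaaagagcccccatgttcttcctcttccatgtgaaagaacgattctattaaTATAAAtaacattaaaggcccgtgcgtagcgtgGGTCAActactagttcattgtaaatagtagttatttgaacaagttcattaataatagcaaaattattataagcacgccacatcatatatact
All 4 windows were rich in A and T. The GC content was 20.8% for THAS1, 27.2% for THAH, 27.2% for MRN1 and 31.6% for CYP71A16, against a median of 31.2% over 27437 promoters of this length. The TATAAA letters were found in 5 of the 7 member windows and in 47.4% of all promoters. Of the other motifs searched on both strands, the phosphate starvation motif P1BS (GNATATNC) was in 0 of 7 windows and in 5.46% of all promoters. The L1 box of epidermal genes (TAAATGCA or TAAATGTA) was likewise in 0 of 7 and in 4.49% of all. The G-box (CACGTG) was in 0 of 7 and in 6.49% of all, the auxin response element (TGTCTC) in 0 of 7 and in 10.9%, and the W-box (TTGACC or TTGACT) in 1 of 7 (CYP71A16) and in 28.4%. A match is a run of letters and not a measured binding site, and the absence of these letters says nothing about the factors.

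The libraries held 427064 to 122076663 reads in genes (median 16836088.5). Epidermis LPi replicate 3 and epidermis HPi replicate 3 were nearly identical. Their BCV, the spread of true levels beyond counting noise, was 0.0442, where the next closest of 75 same-sort pairs had 0.221. Pericycle LPi replicate 3 (1863306 reads) and stele LPi replicate 1 (427064 reads) were shallow. Their median level of epidermis markers was above that of the other cortex, stele and pericycle libraries, as given with the values. The sort labelled cortex carried 5465 to 13515 CPM (read counts scaled to a common library size) of 9 endodermis markers at HPi and 28.7 to 43.8 CPM of 3 cortex markers, and is called cortex here by its label only. Most of the cortex marker sum was JKD, with a mean of 35.3 CPM. AED3 had 2.31 CPM, against 3.2 CPM in the HPi epidermis, and CO2 had 0.0882 CPM. The 9 epidermis markers summed to 199.8 to 522 CPM in the HPi epidermis and to 306 to 484 CPM in the HPi lateral root cap, while the 6 root cap markers summed to 1128 to 1620 CPM in the HPi epidermis and to 614 to 1801 CPM in the HPi lateral root cap. Single markers did differ without overlap at HPi, in both directions. The epidermis gene WER, whose promoter marks the epidermis line, had 12.6 to 19.1 CPM in the epidermis and 0.906 to 3.89 CPM in the lateral root cap. The root cap genes SMB (14.7 to 29.8 CPM against 5.04 to 12.7 CPM) and RCPG (158 to 419 CPM against 5.5 to 21.3 CPM) were also higher in the epidermis sort than in the lateral root cap sort. The hair cell gene RHD6 had 24.2 to 62.8 CPM in the epidermis and 92.1 to 109.5 CPM in the lateral root cap. SMB, RCPG and RHD6 thus go against the name of the lateral root cap sort, which like the epidermis is called here by its label only. At HPi the phloem markers SUC2 (means of 254 against 122 CPM) and APL (8.39 against 0.428) were higher in the pericycle than in the stele. So was the pericycle marker GATA23 (11.7 against 1.05), but not PHO1 (16.3 against 18.6) or AT5G47450 (511 against 876). Stele HPi replicate 1 was shallow (1097568 reads). It held 1717 CPM of endodermis markers, against 28.9 and 81.8 CPM in the other stele HPi libraries. The stele and pericycle sorts are also called by their labels only.

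All 7 genes had their highest mean in the epidermis, at LPi and at HPi, but they split into 2 patterns. THAS1, CYP705A5 and THAA1 were close to absent from the lateral root cap, while THAH and the 3 marneral genes were expressed in both outer sorts. In CPM scaled by edgeR's TMM factors, THAS1 had 2533, 2263 and 3207 CPM in the LPi epidermis, against 2469.9, 2861 and 3247 CPM in the HPi epidermis. In the lateral root cap it had 2.84, 3.5 and 0 CPM at LPi, against 6.64, 0.17 and 0.0478 CPM at HPi, the last from a single read. The HPi root cap mean was thus 0.0799% of the HPi epidermis mean, and no root cap library approached any epidermis library. In these bulk samples fewer cells of a type and less RNA per cell cannot be told apart.

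**Figure D1:**
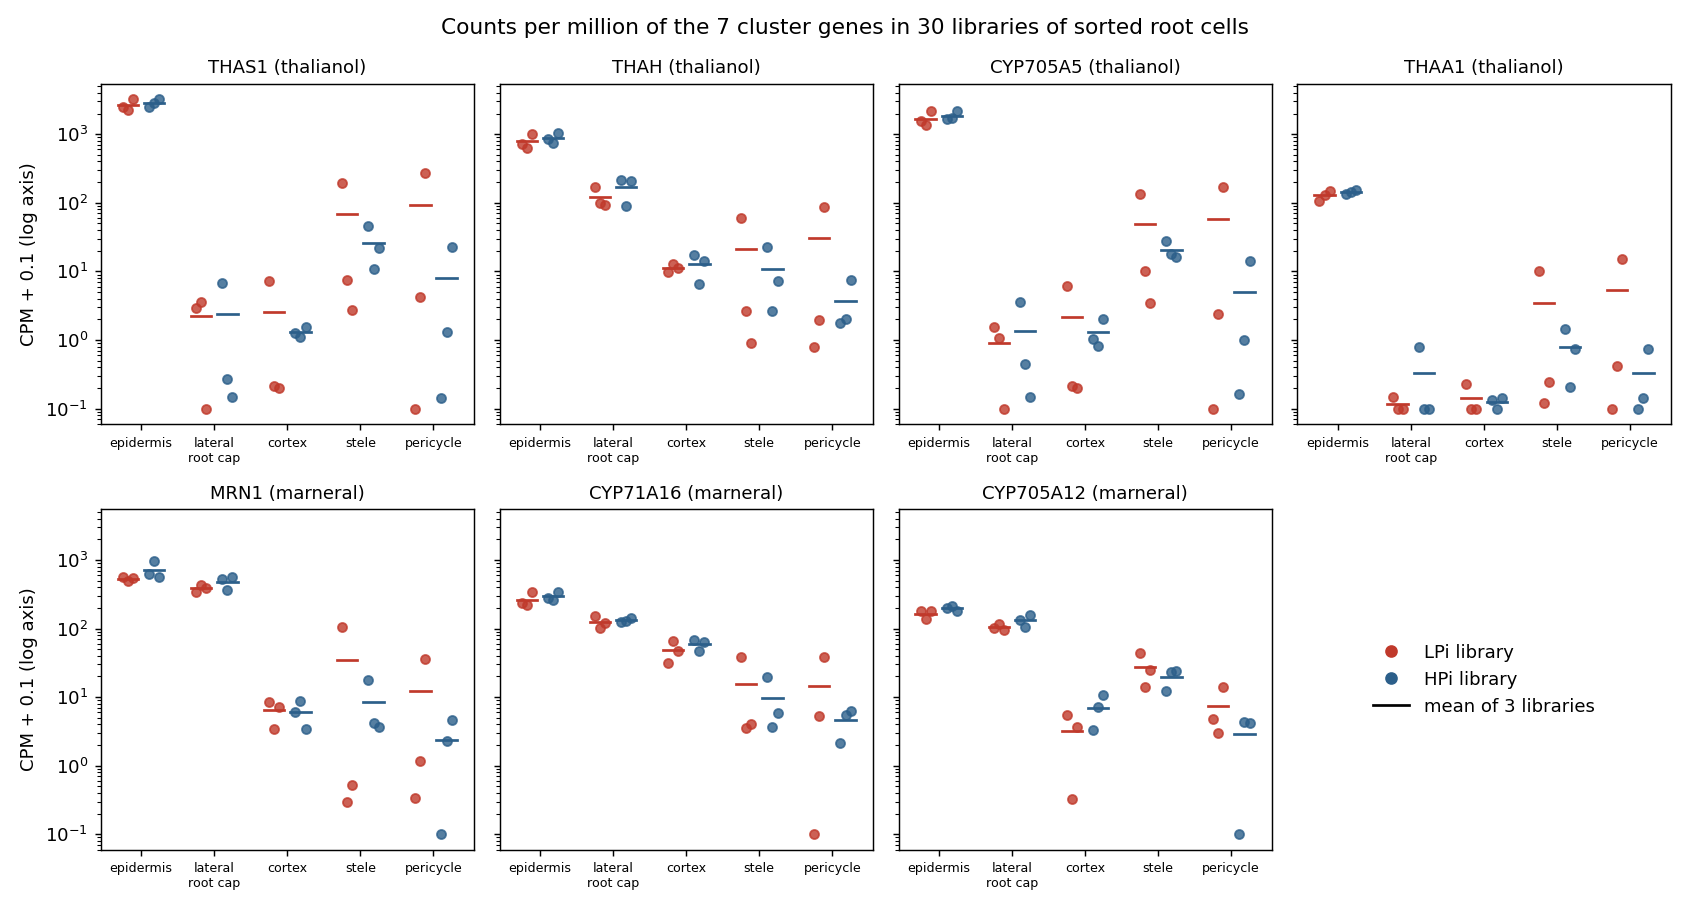
CPM of the 7 genes in every library on a log axis with 0.1 added, LPi (red) left of HPi (blue), with a bar at the mean of 3 libraries. In the epidermis every gene is at its highest mean; THAS1, CYP705A5 and THAA1 drop to single digits or less in the lateral root cap, whereas MRN1 stays at 344 to 568 CPM there.

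CYP705A5 followed the same course as THAS1. It had 1559, 1341 and 2168 CPM in the LPi epidermis, against 1669, 1742 and 2142 CPM in the HPi epidermis. The lateral root cap gave 1.47, 0.971 and 0 CPM at LPi, against 3.43, 0.34 and 0.0478 CPM at HPi, or 0.0688% of the HPi epidermis mean. THAA1 was the least abundant of the cluster, with 105, 129 and 149.9 CPM in the LPi epidermis, against 132, 141 and 156 CPM in the HPi epidermis. In the root cap it had reads in 1 of 3 LPi libraries (0.0489 CPM, 1 read), against 1 of 3 HPi libraries (0.687 CPM, 3 reads). Per kilobase of exon, the HPi epidermis means were 1077 ± 146 CPM for THAS1, 969 ± 133 for CYP705A5, 398 ± 71.3 for THAH and 87.8 ± 7.23 for THAA1 (SD, n = 3 each), so the levels of the cyclase and the desaturase differed by less than 1 SD and that of the acyltransferase was lowest.

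THAH, although it lies between CYP705A5 and THAS1, differed from both in the outer layers. It had 718, 619 and 1023 CPM in the LPi epidermis, against 845, 747 and 1056 CPM in the HPi epidermis. In the lateral root cap it had 171, 99.3 and 92.6 CPM at LPi, against 217, 88.7 and 206 CPM at HPi. Every root cap library thus held more THAH than any cortex library, and the HPi root cap mean was 19.3% of the HPi epidermis mean. The 57 shared stretches of THAH are 3.21% of those in its exons, and their part in this level was not tested.

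MRN1 had 561, 498 and 547 CPM in the LPi epidermis, against 619, 962 and 561 CPM in the HPi epidermis. In the lateral root cap it had 344, 435 and 391 CPM at LPi, against 522, 360.5 and 568 CPM at HPi. The HPi means of 714 ± 217 CPM in the epidermis and 484 ± 109 CPM in the root cap (SD, n = 3 each) overlapped in their libraries, so at HPi this order of the 2 outer sorts lies within the spread, whereas at LPi the lowest epidermis library was above the highest root cap library. CYP705A12 was likewise expressed in both, with 181, 136 and 178 CPM in the LPi epidermis and 103, 118 and 94.3 CPM in the LPi root cap, against 197, 214 and 177 CPM in the HPi epidermis and 135, 106 and 157 CPM in the HPi root cap. At both phosphate levels its lowest epidermis library was above its highest root cap library. As a share of the HPi epidermis mean, the root cap held 67.7% of MRN1, 67.8% of CYP705A12 and 44.9% of CYP71A16.

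**Figure D2:**
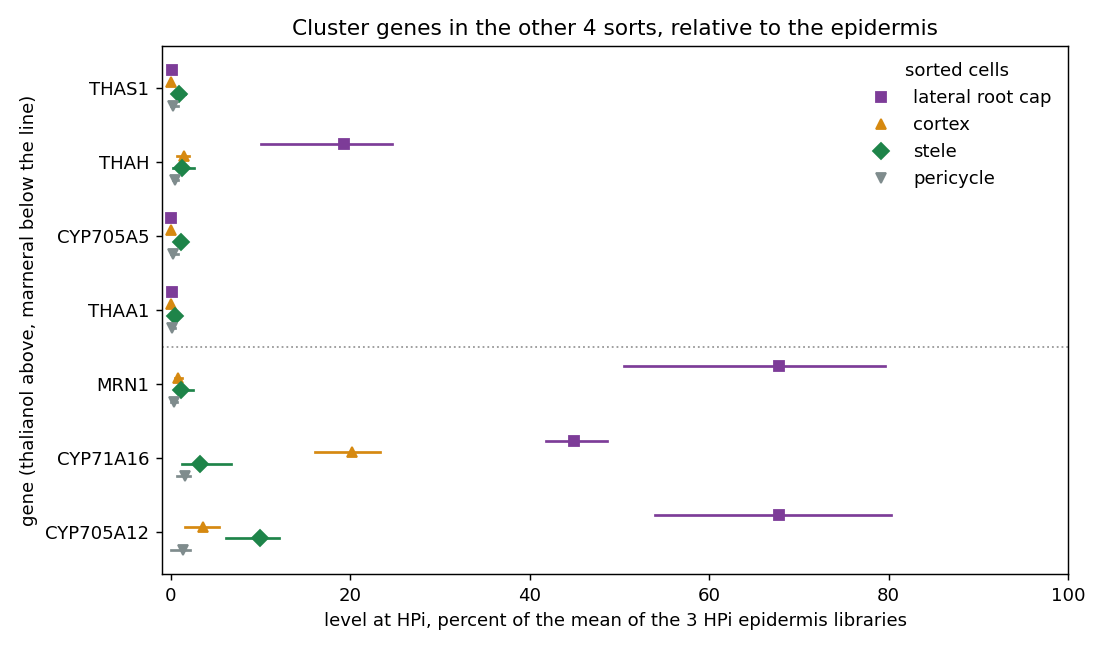
Mean level at HPi in the other 4 sorts as a percent of the mean of the 3 HPi epidermis libraries (symbols), with lines from the lowest to the highest library. The lateral root cap symbols sit at 67.7%, 44.9% and 67.8% for the marneral genes and at 19.3% for THAH, and below 1% for THAS1, CYP705A5 and THAA1.

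CYP71A16 had the highest level of the 7 genes in the cortex sort relative to the HPi epidermis. It had 237, 217 and 338 CPM in the LPi epidermis, against 275, 265 and 339.7 CPM in the HPi epidermis, and 151, 102 and 120.2 CPM in the LPi root cap, against 123, 129.7 and 143 CPM in the HPi root cap. In the cortex sort it had 31.1, 65.6 and 46.7 CPM at LPi, against 68.2, 47 and 62.6 CPM at HPi, which is 20.2% of the HPi epidermis level. Its cluster neighbours MRN1 and CYP705A12 had 0.226 to 10.5 CPM in the same 6 libraries, all below the lowest CYP71A16 value. THAH had 9.75, 12.8 and 11 CPM in the LPi cortex, against 17.4, 6.39 and 13.9 CPM in the HPi cortex, while THAS1, CYP705A5 and THAA1 had at most 7.11 CPM in any cortex library.

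CYP705A12 stood out in the stele, with 43.2, 14.1 and 24.5 CPM at LPi, against 12.1, 22.9 and 23.6 CPM at HPi. At HPi this is 9.97% of its epidermis level, where MRN1 had 1.18% and CYP71A16 3.28%. In stele LPi replicates 2 and 3, which had 39552919 and 58989439 reads, CYP705A12 had 635 and 1382 reads, whereas MRN1 had 9 and 24.

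The order of the cell types by mean at HPi differed by gene. For THAH, MRN1, CYP71A16 and CYP705A12 the lateral root cap came second. For THAS1, CYP705A5 and THAA1 the stele came second, at 26 ± 17.5, 20.5 ± 6.15 and 0.696 ± 0.62 CPM (SD, n = 3 each), with the pericycle next for THAS1 and CYP705A5 at 7.98 ± 12.8 and 4.95 ± 7.75 CPM. The stele and pericycle libraries overlapped for THAS1 and THAA1 but not for CYP705A5. For THAA1 the stele values, from 2, 5 and 14 reads, also overlapped those of the root cap, so its second place was not resolved. The pericycle values overlapped those of the root cap and the cortex, so the order of these 3 sorts was not resolved for THAS1, CYP705A5 or THAA1.

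Across the 30 libraries the same grouping appeared in the correlation of log2 CPM, given as a description because the libraries share cell types and depth. THAS1 and CYP705A5 had r = 0.995, and THAS1 and THAA1 r = 0.949. THAS1 and THAH had r = 0.622, which fell to r = 0.116 over the 24 libraries that were not epidermis. THAH and MRN1, on different clusters, had r = 0.939 over 30 libraries and r = 0.934 over those 24. Within the marneral cluster, MRN1 had r = 0.849 with CYP71A16 and r = 0.842 with CYP705A12, while CYP71A16 and CYP705A12 had r = 0.592. Over the 24 libraries that were not epidermis these fell to r = 0.787, 0.775 and 0.432.

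Among the cortex, stele and pericycle libraries, the highest values of the 4 thalianol genes were in pericycle LPi replicate 3 and stele LPi replicate 1. Pericycle LPi replicate 3 had 276 CPM of THAS1, 170.3 of CYP705A5, 87.9 of THAH and 15.2 of THAA1, whereas the other pericycle LPi replicates had 0 and 4.17 CPM of THAS1 and the 3 HPi replicates 0.0438, 1.2 and 22.7 CPM. Stele LPi replicate 1 had 193 CPM of THAS1 against 7.27 and 2.65 CPM in the other stele LPi replicates. In the first library the 4 genes stood at 9.2% to 10.6% of their HPi epidermis levels and in the second at 6.74% to 7.27%. The 9 epidermis markers, which include the hair cell gene RHD6 and the non-hair cell gene GL2, all had reads in both, with a median of 20.1% of their HPi epidermis level in the first (lowest 7.3%, WER at 1.08 CPM) and 41.8% in the second (lowest 16.9%). Not all 9 were highest in the epidermis at HPi. CPC had a mean of 18.9 CPM there, against 23.9 in the cortex, 32.3 in the pericycle, 32.6 in the stele and 12.5 in the root cap. EGL3 had 0.853 CPM there, against 1.39, 1.21, 0.141 and 4.13 CPM in the same order. In the lateral root cap libraries the markers' median was 84.2% to 167% of the HPi epidermis level. In the other 16 libraries of the cortex, stele and pericycle sorts the markers' median was 0% to 10.6% and the thalianol median 0% to 1.53%. The ratio of THAH to THAS1 was 0.319 in the first and 0.31 in the second, against 0.261 to 0.342 in the 6 epidermis libraries, and that of CYP705A5 to THAS1 was 0.618 and 0.698, against 0.592 to 0.676. A THAH to THAS1 ratio in the epidermis range was also found in stele LPi replicate 3 (0.309), stele HPi replicate 3 (0.319) and pericycle HPi replicate 3 (0.324), so it was not particular to the pair. The part of epidermal RNA in these values was not tested.

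**Figure D3:**
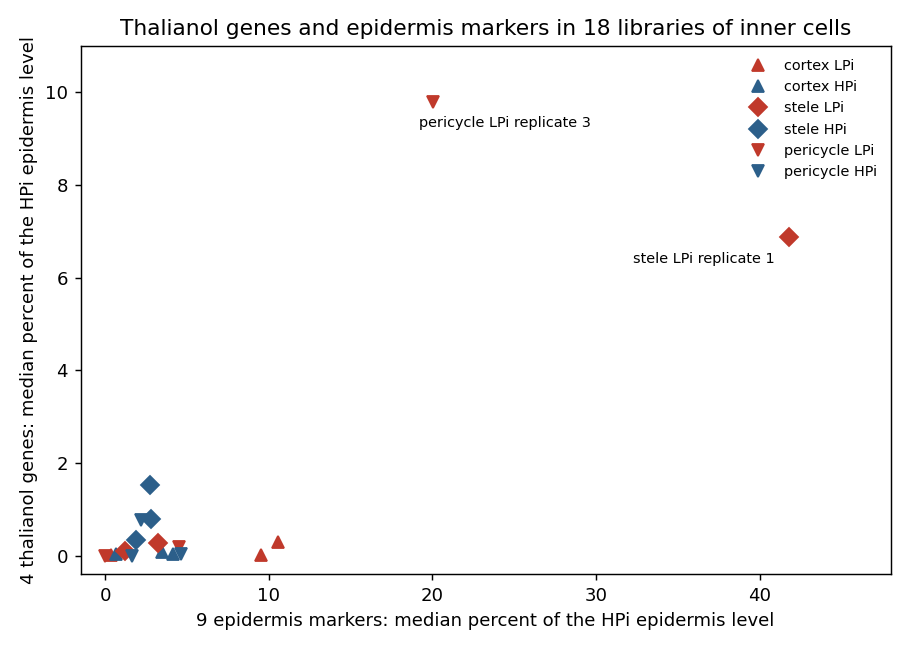
Median level of the 4 thalianol genes against that of 9 epidermis markers, both as a percent of the HPi epidermis level, in 18 libraries of the cortex, stele and pericycle sorts (LPi red, HPi blue). Pericycle LPi replicate 3 and stele LPi replicate 1 lie apart at marker medians of 20.1% and 41.8%, and the other 16 libraries stay at or below 1.53% for the thalianol genes.

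The series asked how root cell types respond to phosphate starvation, so LPi was compared with HPi in each sort with edgeR's quasi-likelihood test over the 24866 genes that passed the filter on low counts, all 7 members among them. None of the 7 passed an adjusted p of 0.05 in any sort, and none had an unadjusted p under 0.05. Over all genes the calls were 0 (0%) in the epidermis, 6 (0.0241%) in the lateral root cap, 0 (0%) in the cortex, 0 (0%) in the stele and 1 (0.00402%) in the pericycle, and unadjusted p under 0.05 was reached by 243, 1679, 1221, 758 and 3063 genes in that order. DESeq2 called 2, 139, 22, 30 and 1494 genes in the same order, and 1 member, THAH in the pericycle. Averaged over the sorts, 1 gene was called (0.00402%) and no member, with adjusted p of 0.832 to 1 for the 7. The joint test of a response differing between sorts called 0 genes (0%), with adjusted p of 1 for every member (1334 genes had an unadjusted p under 0.05). As a check on the treatment, 5 phosphate starvation genes summed to 482 to 659 CPM in the LPi cortex against 252 to 277 CPM in the HPi cortex, and to 327 to 443 CPM in the LPi stele against 231 to 288 CPM in the HPi stele. In the pericycle they summed to 224, 333 and 1091 CPM at LPi, the last in replicate 3 with 892 CPM of SPX1 alone, against 91.7 to 125 CPM at HPi. The groups overlapped in the outer sorts, with sums of 494 to 806 CPM in the LPi lateral root cap against 494 to 888 CPM in the HPi lateral root cap, and of 445 to 547 CPM in the LPi epidermis against 450 to 556 CPM in the HPi epidermis. Most of the cortex sum was AT4, with means of 451 CPM at LPi and 192 CPM at HPi. SPX1 went the other way there, with 11.5 to 24.5 CPM at LPi against 27 to 41.1 CPM at HPi, while the rest had higher means at LPi. The SPX1 mean was also lower at LPi in the epidermis (98.3 against 139 CPM) and the lateral root cap (196 against 284 CPM).

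In the epidermis, where all 7 genes were most abundant, the differences were small and below 0. The log2 difference, LPi minus HPi, was −0.10 for THAS1 (SE 1.93), −0.17 for THAH (SE 1.24), −0.13 for CYP705A5 (SE 1.75) and −0.16 for THAA1 (SE 1.37). For the marneral genes it was −0.42 for MRN1 (SE 1.52), −0.15 for CYP71A16 (SE 1.03) and −0.25 for CYP705A12 (SE 0.881), with an adjusted p of 1 for each of the 7. These errors come from a spread shared by all 30 libraries. With the epidermis libraries fitted alone the differences were −0.09 ± 0.163 for THAS1, −0.16 ± 0.187 for THAH, −0.13 ± 0.175 for CYP705A5, −0.15 ± 0.183 for THAA1, −0.42 ± 0.260 for MRN1, −0.14 ± 0.178 for CYP71A16 and −0.25 ± 0.203 for CYP705A12 (SE, n = 3 each), again with an adjusted p of 1 in edgeR. Without the nearly identical pair the same differences ran between −0.67 for MRN1 and −0.25 for THAS1. For MRN1 the 3 LPi libraries did not overlap the 3 HPi libraries, a pattern seen in 6.7% of all genes in the epidermis, and the other 6 overlapped. The gap for MRN1 was narrow, from 561.2 CPM in LPi replicate 1 to 561.5 CPM in HPi replicate 3. In the other sorts all 7 genes overlapped between LPi and HPi, where 7.8% of all genes did not in the lateral root cap, 8.64% in the cortex, 8.7% in the stele and 14% in the pericycle.

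**Figure D4:**
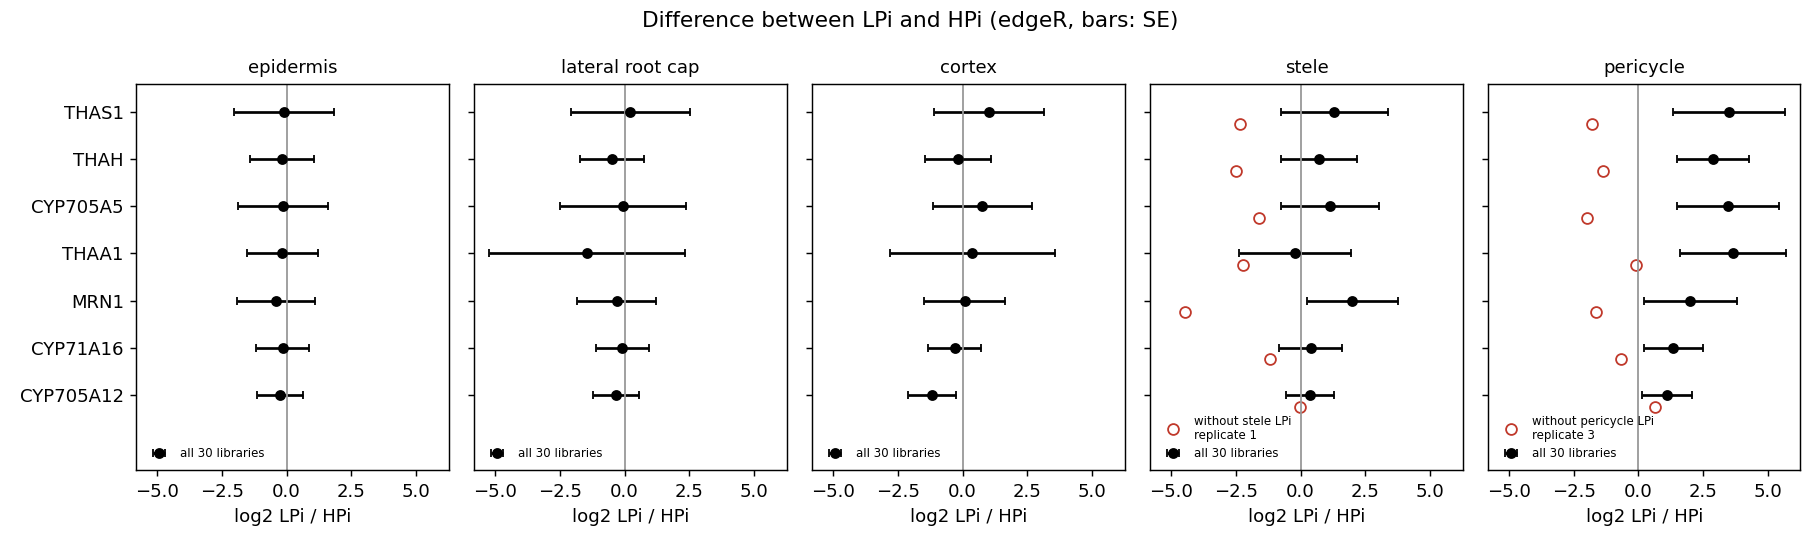
Log2 difference of LPi over HPi for the 7 genes in each sort from edgeR on 30 libraries (black, bars are SE), and without 1 library (open red). The epidermis points lie between −0.42 and −0.10, and THAS1 stands at 3.50 in the pericycle with all libraries and at −1.80 without pericycle LPi replicate 3.

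In the lateral root cap the 4 genes expressed there also lay below 0 without passing the test. THAH differed by −0.49 (SE 1.24), MRN1 by −0.31 (SE 1.52), CYP71A16 by −0.08 (SE 1.03) and CYP705A12 by −0.33 (SE 0.882), with an adjusted p of 1 in edgeR for each. THAS1, CYP705A5 and THAA1, at or near 0 CPM there, had 0.22, −0.05 and −1.47. In the cortex CYP71A16 differed by −0.31 (SE 1.03, adjusted p of 1 in edgeR), and the other 6 genes lay between −1.17 for CYP705A12 and 1.03 for THAS1. Without cortex LPi replicate 1, THAS1 stood at −3.44, CYP705A5 at −3.47 and THAA1 at −2.89.

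The largest positive differences were in the pericycle and the stele, and they rested on 1 library each. THAS1 differed by 3.50 in the pericycle (SE 2.16, edgeR adjusted p = 0.542) and THAH by 2.87 (SE 1.39, edgeR adjusted p = 0.408). CYP705A5 had 3.46, THAA1 3.66, MRN1 2.005, CYP71A16 1.34 and CYP705A12 1.10, with edgeR adjusted p of 0.495 to 0.71 for these 5. Without pericycle LPi replicate 3, THAS1 stood at −1.80, THAH at −1.37, CYP705A5 at −1.98, THAA1 at −0.08, MRN1 at −1.64 and CYP71A16 at −0.67, and of the 7 CYP705A12 alone kept its sign. DESeq2 gave 3.56 for THAH in the pericycle with an adjusted p of 0.03 on all libraries. In the stele THAS1 differed by 1.31 (SE 2.05) and CYP705A12 by 0.38 (SE 0.921), both with an adjusted p of 1 in edgeR, and without stele LPi replicate 1 they stood at −2.32 and −0.04. MRN1 differed by 1.997 in the stele (SE 1.76, edgeR adjusted p of 1) and stood at −4.47 without that library. In the stele with all libraries THAH had 0.71, CYP705A5 1.14, THAA1 −0.21 and CYP71A16 0.39.

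The other genes of the thalianol pathway were higher in both outer sorts. They are THAA2 (AT5G47950), a second acyltransferase that lies 10231 bp from the cluster, and the reductases THAR1 (AT3G29250) and THAR2 (AT1G66800), which lie elsewhere in the genome. All 3 were called higher in the HPi epidermis against the mean of the other 4 sorts, where 11.5% of all genes were, and all 3 in the HPi lateral root cap, where 12.4% of all genes were. THAR1 had 936 ± 251 CPM in the epidermis and 583 ± 69.8 CPM in the root cap (SD, n = 3 each), with 3.68 to 14.9 CPM as means in the inner sorts. The log2 difference was 5.36 (SE 1.01, edgeR adjusted p = 0.000535) in the epidermis and 4.50 (SE 0.997, edgeR adjusted p = 0.00248) in the root cap. The lists of related genes were chosen with earlier results of these data known. Their calls and p-values between sorts, here and below, thus describe these libraries and are not independent tests. THAA2 had 191 ± 8.46 CPM in the epidermis and 135 ± 54.9 CPM in the root cap, and THAR2 had 128 ± 10.7 CPM and 150.3 ± 18.6 CPM. Their root cap levels were thus of the same order as their epidermis levels, as for the marneral genes and unlike THAS1, CYP705A5 and THAA1, while THAH lay between at 19.3%. None of the 3 was called at LPi against HPi in any sort.

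Genes that supply oxidosqualene were in part higher in the epidermis. Of 9 tested genes of squalene and oxidosqualene synthesis, 3 were higher there and 1 was lower, where 11.5% of all genes were called higher and 6.23% lower. SQE4, a squalene epoxidase, had 357 ± 194 CPM in the epidermis and 241 ± 48.7 CPM in the root cap (SD, n = 3 each), with means of 3.14 to 9.45 CPM in the inner sorts, and was called in both (log2 4.49, SE 0.746, edgeR adjusted p = 0.000147 in the epidermis). The epoxidases SQE1 and SQE3 were higher in the epidermis by 0.96 and 1.41 on the log2 scale, and SQS2, a second squalene synthase gene, was lower by −2.78. Of 10 genes of the mevalonate pathway, which makes the isoprene units, 3 were higher in the epidermis, namely HMGS (1.27), MVK (1.46) and ACAT2 (0.96), and 0 were lower. Over all genes 11.5% were higher and 6.23% lower there.

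Among 11 other oxidosqualene cyclases, 2 were higher and 1 was lower in the epidermis, where 11.5% and 6.23% of all genes were. In the root cap 3 were higher and 2 lower, where 12.4% and 11.5% of all genes were. LAS1, the lanosterol synthase, had 212 ± 128 CPM in the root cap and 114 ± 33.5 CPM in the epidermis (SD, n = 3 each) and was called in both. CAS1, the cycloartenol synthase of sterol synthesis, was higher in the epidermis (0.92) and lower in the root cap (−1.18). PEN1, the arabidiol synthase, took the other direction, lower in the epidermis (−2.62) and in the root cap (−2.59). In the related clusters, CYP705A1, the P450 that cleaves arabidiol, was lower in the epidermis (−2.58) and in the root cap (−3.40), CYP705A2 was higher in both (5.98 and 2.62), and CYP716A1 was higher in the root cap, with 25.3 ± 18.7 CPM.

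CYP705A5 and CYP705A12 belong to a large P450 family, and 22 further genes with CYP705A symbols were tested. In the epidermis 9 were higher and 1 was lower, where 11.5% and 6.23% of all genes were. In the root cap 9 were higher and 2 lower, where 12.4% and 11.5% of all genes were. The median log2 difference of the 22 was 1.32 in the epidermis and 1.35 in the root cap, where the medians of all genes were −0.06 and 0.02. CYP705A30 was at 267 ± 71.6 CPM in the epidermis and CYP705A8 at 101 ± 19.7 CPM (SD, n = 3 each). Several of these genes are close copies of each other, and reads may have been split between them. Of 9 tested chromatin regulators known to act on such clusters, 0 were called in the epidermis in edgeR, and 2 were lower in the root cap, the chromatin remodeller PKL (−1.19) and the histone demethylase REF6 (−1.92), where 11.5% of all genes were lower. In the pericycle 4 of the 9 were higher, where 13.2% of all genes were, and in the stele 1 was, where 12.1% were. Of 8 sterol synthesis genes, 1 was higher in the epidermis, the sterol isomerase HYD1 (1.37), where 11.5% of all genes were, and 1 was lower in the root cap, the sterol methyltransferase SMT2 (−1.36). In the stele 3 of the 8 were higher, and in the pericycle 1 was higher and 2 were lower, where 7.17% of all genes were lower.

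In the inner sorts, the 92 related genes tested over all these lists, with the genes beside the clusters, were called against the mean of the other 4 sorts at HPi as follows. In the pericycle 9 were higher, where 13.2% of all genes were, and 17 were lower, where 7.17% were. The 17 included THAA2 (log2 −4.83), THAR1 (−4.65), THAR2 (−3.55), SQE4 (−4.05), LAS1 (−4.72) and 8 of the CYP705A genes. In the stele 10 were higher, where 12.1% of all genes were, and 7 were lower, where 5.68% were. In the cortex sort 4 were higher, where 8.02% of all genes were, and 4 were lower, where 3.36% were. Without pericycle HPi replicates 1, 2 and 3 in turn the 26 calls in the pericycle became 14, 10 and 10, without stele HPi replicate 2 or 3 the 17 in the stele became 6 or 7, and without cortex HPi replicate 1 or 3 the 8 in the cortex sort became 3 or 4. Of the cyclases and the enzymes of related clusters, PEN1 and CYP705A1 of the arabidiol pathway were called higher in an inner sort. PEN1 had 275 ± 86.5 CPM in the pericycle and 139 ± 41.1 CPM in the stele (SD, n = 3 each), with log2 differences of 3.63 (SE 0.375, edgeR adjusted p = 1.56e-07) and 2.41 (SE 0.385, edgeR adjusted p = 5.01e-05). CYP705A1 had 93.5 ± 40.2 CPM in the stele and 82.1 ± 18.1 CPM in the cortex sort (SD, n = 3 each), and was called higher in both.

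Of the tested genes beside or inside the clusters, THAA2 and ATS alone were called higher in the epidermis, and ATS was not called in the root cap. Of the 10 protein-coding neighbours tested around the thalianol cluster, 1 (THAA2, log2 5.00, SE 0.958, edgeR adjusted p = 0.000639) was higher in the epidermis and 0 were lower, a share near that of all genes. In the root cap 3 of them were higher (THAA2, RABA4C and AT5G48050) and 2 lower (AT5G47930 and GFA2), where 12.4% and 11.5% of all genes were. The gene next to THAS1, AT5G48020, lies 810 bp away and had 27.7 ± 2.25 CPM in the HPi epidermis, against 34.3 CPM in the root cap and 61 CPM in the stele. Within the cluster bounds the annotated RNA gene AT5G07035 had 0.36 CPM in the HPi epidermis and did not pass the filter. Of the 9 genes tested beside or inside the marneral cluster, 1 was higher in the epidermis and 0 were lower, where 11.5% and 6.23% of all genes were. It was ATS (AT5G42630, a KANADI family transcription factor gene known from ovules), with 9.51 ± 2.94 CPM in the HPi epidermis and a log2 difference of 3.13 (SE 0.884, edgeR adjusted p = 0.0115). ATS had 4.82 CPM in the root cap and was not called there (edgeR adjusted p = 0.128). AT5G42570, 779 bp from CYP705A12, had 177 CPM in the epidermis and 358 CPM in the cortex sort and was not called in the epidermis. Of the annotated RNA genes inside the marneral cluster, AT5G06335 had 0.374 CPM in the HPi epidermis, AT5G06325 had 0 reads there, and AT5G00580 was not analysed here.

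**Figure D5:**
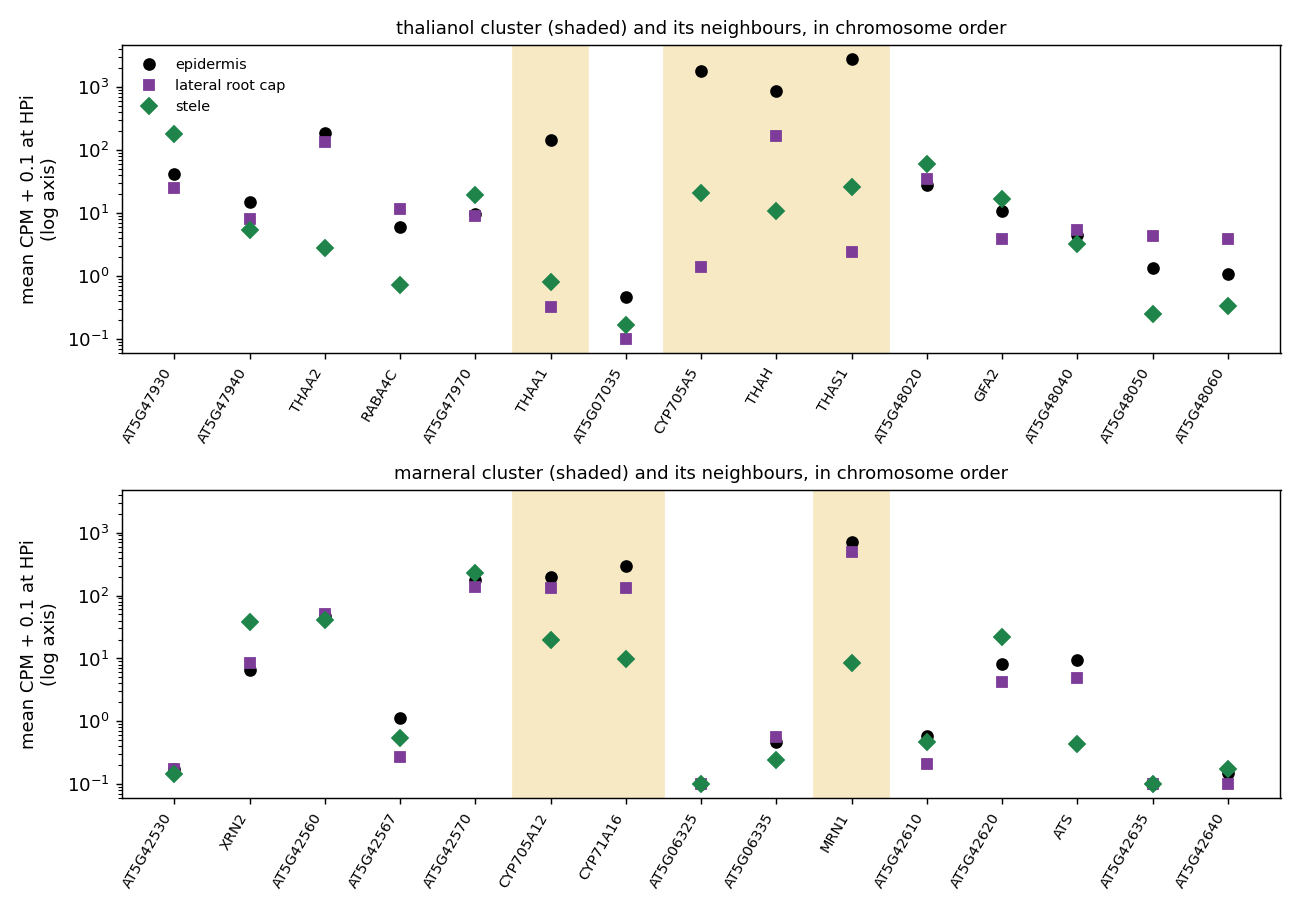
Mean CPM at HPi (0.1 added, log axis) of each cluster gene (shaded) and its neighbours in chromosome order, in the epidermis, lateral root cap and stele. THAS1, CYP705A5 and THAA1 show a wide gap between epidermis and root cap symbols (2859 against 2.29 CPM for THAS1), THAH, THAA2 and the marneral genes a narrower one, and most neighbours lie close together in the 2 sorts.

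Genes whose log2 CPM followed each cluster's mean most closely over the 30 libraries were ranked by Pearson's r among 15282 genes. For the thalianol cluster the highest were AT5G45500 (0.899), AT1G15625 (0.875), RCPG (0.874, a root cap polygalacturonase gene), AT3G04330 (0.874), AT4G17470 (0.869), AT3G23510 (0.862), AT5G45490 (0.847), AT1G35350 (0.845), AT2G03980 (0.842) and JAL31 (0.837). RCPG, one of the root cap markers, had 299.8 CPM in the HPi epidermis and 12.5 CPM in the HPi root cap. For the marneral cluster they were AT5G04970 (0.986), THAR1 (0.982), AT3G04320 (0.981), CEP2 (0.981, a cysteine endopeptidase gene), MC5 (0.979, a metacaspase gene), AT1G27110 (0.978), CRK25 (0.977), AT4G22640 (0.977), AT3G06460 (0.977) and AT5G26260 (0.977). CEP2 had 4712 CPM in the HPi epidermis and 3544 CPM in the HPi root cap, and AT5G26260 had 4883 and 3060 CPM. Ranked by Spearman's correlation instead, only 4 of the 10 genes for the thalianol cluster and 1 of the 10 for the marneral cluster stayed among the 10 highest, so the names depend on the measure. These values describe likeness across libraries that share 5 cell types, and carry no test.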

How the data were processed

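RNA from sorted root cells was amplified with SMART-Seq v4 and made into libraries with a ThruPLEX kit, per the labels. The authors deposited 1 table of raw read counts per gene, without normalization. The submitters' processing notes name CASAVA 1.4, FastQC 0.11.9, MultiQC 1.7, STAR 2.5.3a, HTSeq 1.99.2 and DESeq2. The genome build, annotation and strand setting were not given in the sources used here, and without strand a gene and an antisense partner cannot be told apart. Rows that name no gene held 4.99% to 12.5% of the counts and were left out.

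Counts of 30 libraries were scaled by TMM, filtered with filterByExpr (24866 of 32833 genes kept) and fitted in edgeR 4.0.16 (R 4.3.3) with 1 mean per group, 20 residual degrees of freedom and a common BCV of 0.749. Quasi-likelihood p-values were adjusted by Benjamini-Hochberg over all genes at 0.05. Levels are CPM, and correlations use log2 CPM with a prior count of 1. Alternatives used DESeq2 1.42.0, limma 3.58.1 (voom with sample weights), other scalings and filters, and subsets of libraries. Positions, names (32548 identifiers matched) and promoters came from TAIR10.1. Sequencing depth sets the counting error, which the spread among libraries includes, and PCR reads are not independent molecules. A low value in a single library thus carries a relatively large counting error that is not shown with it.

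Same-numbered LPi and HPi libraries deviated together, with every correlation over 0.1, in the epidermis (0.206, 0.123 and 0.238) and the stele (0.212, 0.111 and 0.166), but not in the other sorts.

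The members and gene lists were chosen with earlier results of these data known. Named are all 7 members, up to 4 called genes per list (otherwise the 2 most abundant), the 10 genes most like each cluster, and 5 protein-coding genes on each side of each cluster with every gene inside it.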

Additional observations from a re-analysis of the deposited data

How the results depend on the processing

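Over all alternatives no member passed the test at LPi against HPi in any sort or on average over the sorts, except THAH in the pericycle with DESeq2 (1 member called, against 0). Of the log2 differences of the 7 members in each sort and on average, 60 of 369 values from other settings and 53 of 1260 values with 1 library left out had the other sign, none of them in the epidermis. Depth limits the lowest levels, such as THAA1 in the root cap with 1 read in all LPi and 3 reads in all HPi libraries. The log2 differences from other settings listed below are those with the sign opposite to the main fit. The cause of the changes listed here was not tested.

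With limma voom and sample weights, which changes the test and the weight of each library together, the log2 difference was −1.83 for THAS1, −1.89 for CYP705A5 and −0.0068 for THAA1 in the cortex. In the pericycle it was −3.08 for THAS1, −1.34 for THAH, −2.82 for CYP705A5, −0.094 for THAA1, −1.62 for MRN1 and −3.11 for CYP71A16. In the stele it was −1.91 for THAS1, −1.70 for THAH, −1.39 for CYP705A5, −3.11 for MRN1, −0.37 for CYP71A16 and −0.27 for CYP705A12, and in the lateral root cap −0.97 for THAS1. On average over the sorts it was −1.58 for THAS1, −0.86 for THAH, −1.59 for CYP705A5, −0.66 for THAA1, −0.97 for MRN1 and −0.85 for CYP71A16. The main fit gave averages of 1.19 for THAS1, 0.55 for THAH, 1.04 for CYP705A5 and 0.44 for THAA1. For the marneral genes its averages were 0.67 for MRN1, 0.24 for CYP71A16 and −0.06 for CYP705A12. Without the 3 libraries with the fewest reads the pericycle gave −1.80 for THAS1, −1.37 for THAH, −1.98 for CYP705A5, −0.056 for THAA1, −1.64 for MRN1 and −0.67 for CYP71A16, and the stele −1.69 for THAS1, −1.46 for THAH, −1.33 for CYP705A5, −3.56 for MRN1, −0.30 for CYP71A16 and −0.25 for CYP705A12. CYP705A5 was then at 0.27 in the root cap, and the averages were −0.41 for THAS1, −0.73 for THAH, −0.48 for CYP705A5, −0.61 for THAA1, −1.17 for MRN1 and −0.30 for CYP71A16.

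With the replicate number as a block within each sort, the difference was −0.36 for THAS1 and −0.33 for CYP705A5 in the cortex and −0.26 for CYP71A16 in the pericycle. In the stele it was −0.55 for THAS1, −0.53 for THAH, −0.44 for CYP705A5 and −1.92 for MRN1, and the averages were −0.11 for THAH, −0.20 for MRN1, −0.16 for CYP71A16 and 0.047 for CYP705A12. The block left 1 gene called in the root cap, against 6, and changed no call of a member.

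DESeq2 gave 2.51 for THAA1 in the stele, −0.064 for THAS1 in the root cap and 0.16 for the average of CYP705A12, and each sort fitted alone gave 2.27 and −0.085 for the first 2. The average of CYP705A12 was 0.10 with RLE factors and 0.025 with the stricter filter. Without the nearly identical epidermis pair CYP705A5 was at 0.0058 in the root cap.

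With 1 library left out at a time the pericycle differences ran from −1.80 to 7.03 for THAS1, −1.37 to 3.83 for THAH, −1.98 to 6.66 for CYP705A5, −0.081 to 6.22 for THAA1, −1.64 to 2.94 for MRN1 and −0.67 to 2.05 for CYP71A16, each negative only without LPi replicate 3. In the stele they ran from −2.32 to 1.91 for THAS1, −2.49 to 1.68 for THAH, −1.597 to 1.75 for CYP705A5, −4.47 to 2.88 for MRN1, −1.18 to 1.24 for CYP71A16 and −0.037 to 0.71 for CYP705A12, with the lowest value without LPi replicate 1, and from −2.24 to 2.11 for THAA1, which was above 0 without LPi replicates 2 or 3 or HPi replicates 1 or 3. In the cortex they ran from −3.44 to 1.68 for THAS1, −3.47 to 1.42 for CYP705A5 and −2.89 to 1.10 for THAA1, each lowest without LPi replicate 1, from −0.20 to 0.45 for MRN1 and from −0.49 to 0.23 for THAH. In the root cap they ran from −0.50 to 4.24 for THAS1, −1.15 to 2.21 for CYP705A5, −4.23 to 2.81 for THAA1 and −0.26 to 0.078 for CYP71A16. The averages ran from −0.31 to 0.74 for THAH, −0.0060 to 1.67 for CYP705A5, −0.37 to 1.28 for THAA1, −0.65 to 0.85 for MRN1, −0.18 to 0.39 for CYP71A16 and −0.23 to 0.089 for CYP705A12.

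The number of all genes called at LPi against HPi in the pericycle, against 1, was 889 with RLE size factors, 164 with the stricter filter, 1494 with DESeq2, 0 with the sort fitted alone and 3 without the 3 shallowest libraries. DESeq2 called 2 in the epidermis, 22 in the cortex, 30 in the stele and 139 in the root cap, and voom with sample weights 2 in the cortex, 77 in the stele and 0 in the root cap. The stele had 2 without the shallowest libraries, and the root cap 0 fitted alone and 1 without the nearly identical epidermis pair. With 1 library left out the counts ran from 0 to 1107 in the pericycle (1107 without LPi replicate 2, 1091 without LPi replicate 1), from 0 to 109 in the root cap (109 without HPi replicate 1, 0 without HPi replicate 3) and from 0 to 15 in the cortex (15 without HPi replicate 2).

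Related genes called in 1 sort against the others numbered 24 in the cortex, 50 in the pericycle and 47 in the stele with voom and sample weights, against 8, 26 and 17. They ran from 3 to 10 in the cortex (3 without HPi replicate 1, 4 without HPi replicate 3), from 10 to 33 in the pericycle (14, 10 and 10 without HPi replicates 1, 2 and 3) and from 6 to 25 in the stele (6 without HPi replicate 2, 7 without HPi replicate 3). Their counts in the epidermis (25) and root cap (31) stayed within 1.5 times. Of the 10 genes most like each cluster, Spearman's correlation kept 4 for thalianol and 1 for marneral.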
